A study of Mus musculus with 6 samples.

Results

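The cytokines IL12, IL23 and IL27 and the chains of their receptors were examined in whole kidneys of MRL and LPR mice. The set holds 10 genes, which are the subunits Il12a, Il12b, Il23a, Il27 and Ebi3 and the receptor chains Il12rb1, Il12rb2, Il23r and Il27ra, together with Il18r1, a chain of the receptor of IL18. Every probe of the array whose gene name is one of these was taken, which gave 11 probes of the 56605 that are not controls, or 10 of the 36870 gene names on the array. Il18r1 had 2 probes and the other genes had 1 each. The study examined tertiary lymphoid tissue in the kidneys of mice with lupus nephritis, and the transcriptome analysis compared diseased with control kidneys. The kidneys came from 3 female MRL mice (strain MRL/MpJ) and 3 female LPR mice (strain MRL/MpJ-Fas lpr/lpr), all at 6 months of age and without any treatment named in the labels. Both groups share the MRL background, which itself develops mild autoimmune disease with age, so the MRL mouse is a control for the lpr allele and not a healthy strain. The lpr allele is a mutation of Fas, the death receptor that limits the number of lymphocytes. Each mouse gave 1 array, no RNA was pooled, and the labels do not say whether the mice were littermates. The p-values therefore measure the spread between these 6 mice only. In limma the variance of each probe also borrows from that of all tested probes.

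IL12, IL23 and IL27 are secreted mainly by dendritic cells and macrophages, and each is a pair of subunits that are shared between the cytokines. IL12 joins the products of Il12a and Il12b, IL23 those of Il23a and Il12b, IL27 those of Il27 and Ebi3, and IL35 is described as the pair of Il12a and Ebi3. The receptors share chains in the same way. Il12rb1 serves the receptors of both IL12 and IL23 and is joined by Il12rb2 for the first and by Il23r for the second, whereas Il27ra pairs with the common chain gp130 (Il6st). Il18r1 binds IL18, which acts together with IL12 on T cells and natural killer cells to raise interferon gamma. Through JAK kinases and STAT factors, IL12 favours type 1 T cells, IL23 supports type 17 T cells, and IL27 can both favour type 1 responses and restrain inflammation, for example by inducing IL10.

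The arrays were alike within a group. Pearson's r over all tested probes was 0.990 to 0.993 between arrays of 1 group and 0.961 to 0.971 between arrays of different groups. The share of spots well above background was 69.6% to 73.5%, and saturation did not occur. Values are given as relative log2 intensity, which is the log2 intensity minus the 75th percentile of the array, so that 0 is as bright as that percentile. A change is the LPR mean minus the MRL mean on this scale. A probe entered the test when 3 or more of the 6 arrays showed it well above background. This left 39924 probes for limma, with Benjamini-Hochberg adjustment over all of them and a threshold of 0.05. The median change over these probes was -0.13. Fas was read by 2 probes. The bright one (NM_007987) was -0.35, -0.27 and -0.04 in the MRL mice and -0.47, -1.23 and -0.36 in the LPR mice, a change of -0.47 that did not pass (SE 0.24, adjusted p = 0.235 in limma). The dim one (NM_001146708) was well above background in the 3 LPR mice only and was tested through them. Its adjusted p of 0.0337 in limma belongs to a fit on MRL signals not well above background. As a bound, it was at least 1.47-fold higher in the LPR mice. Such a bound sets the LPR mean against MRL signals taken no lower than the dimmest detected signal of their array. The 2 probes thus went opposite ways, and the Fas signal does not by itself check the labels.

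The first 30 bases of 6 probes are given in the direction of the probe. They are the 4 probes that passed the test, the second Il18r1 probe, which was too dim to be tested, and the probe of Il12rb2, the chain that completes the IL12 receptor. Signals were read from the whole probe of 60 bases, and positions are those of the whole probe on build mm9. No genome of that build was used here, so the exon in which a probe lies is not given.
Il12rb1, probe A_55_P2034033, chr8:73345261-73345320, plus strand: agtttccctattagagtattgggcacttaa
Il27ra, probe A_55_P2713825, chr8:86554233-86554292, minus strand: ccctgcacacacatggttacttatgcaccg
Il18r1, probe A_51_P505617, chr1:40557541-40557600, plus strand: tgtcacaacagctgtgtgtgaaaacctagc
Il18r1, probe A_55_P2092492, chr1:40537851-40537910, plus strand: gtccaccataatgggacacggtacaacatc
Ebi3, probe A_51_P202633, chr17:56096309-56096368, plus strand: agcactggataattcacttgacttcttcag
Il12rb2, probe A_55_P1970489, chr6:67242256-67242315, minus strand: atatttctctttccatttttgcatcaagtt

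Of the 11 probes, 7 were tested, and each of these was well above background in all 3 MRL mice. In limma 4 of the 7 rose in LPR mice, 0 fell and 3 missed the threshold, and at an unadjusted p under 0.05 the count of those lower was also 0. Of all tested probes, 6.54% were higher and 6.07% were lower. The same 4 probes, Il12rb1, Il27ra, Il18r1 and Ebi3, had every LPR mouse above every MRL mouse, which 11.1% of all tested probes did. The median change of the 7 was 1.50. The other 4 probes, those of Il12a, Il23a and Il23r and the second one of Il18r1, were too dim to be tested. In whole kidney a change in the number of cells of a type and a change in RNA per cell cannot be told apart.

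**Figure D1:**
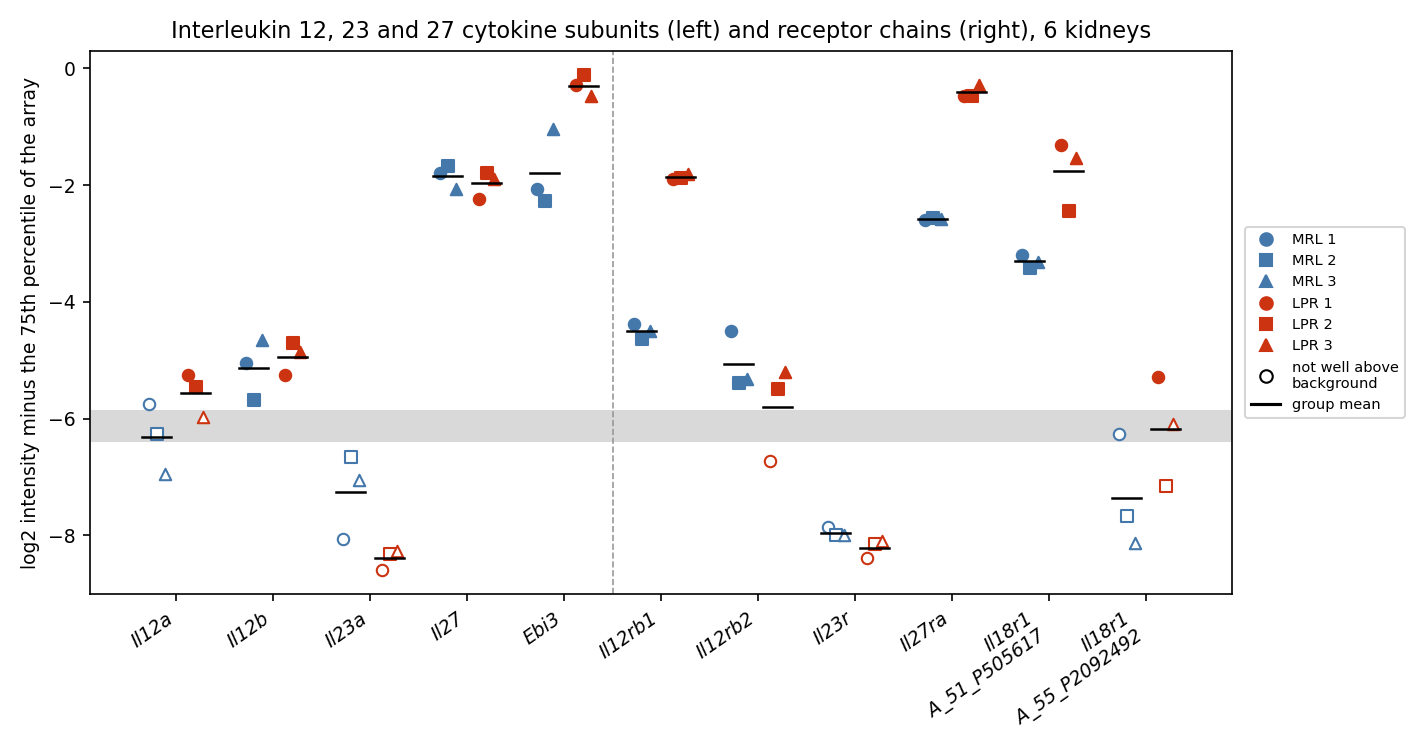
Relative log2 intensity (log2 intensity minus the 75th percentile of the array) of the 11 probes in each of the 6 kidneys, with open symbols for signals not well above background, black lines for group means and a grey band for the lowest signals well above background on the 6 arrays. The LPR kidneys lie above all MRL kidneys for Ebi3, Il12rb1, Il27ra and the brighter Il18r1 probe, whereas Il23a and Il23r lie under the band in all 6.

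Il12rb1, the receptor chain shared by IL12 and IL23, had the largest rise among the members, except with normexp background correction. Its relative log2 intensity was -4.38, -4.64 and -4.49 in the MRL mice and -1.90, -1.87 and -1.82 in the LPR mice. The groups were far apart and the LPR mice were nearly equal. The means were -4.50 ± 0.13 and -1.86 ± 0.04 (SD, n = 3 each), a rise of 2.64 (SE 0.11, 95% confidence interval 2.39 to 2.90), or 6.25-fold, with an adjusted p of 2.24e-05 in limma. With that correction the rise was 1.35 and still passed, below the 1.68 of Il27ra. The MRL signals of Il12rb1 were dim, the lowest of them 1.35 log2 units above the dimmest detected signal of its array. The size of the fold thus depended on the background correction.

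Il27ra, the specific chain of the IL27 receptor, behaved likewise. The relative log2 intensity was -2.61, -2.57 and -2.59 in the MRL mice and -0.47, -0.47 and -0.28 in the LPR mice. The SD within the MRL group was only 0.02, and each LPR mouse was well above all 3. The rise was 2.18 (SE 0.10, 95% confidence interval 1.93 to 2.42), or 4.53-fold, with an adjusted p of 3.89e-05 in limma. The calls of Il12rb1 and Il27ra held under all 20 alternatives of processing, model and left-out mouse.

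For the partner chains of these receptors no rise was called. Il12rb2, the second chain of the IL12 receptor, was -4.50, -5.38 and -5.31 in the MRL mice and -6.72, -5.49 and -5.20 in the LPR mice. The ranges overlapped, LPR 1 was not well above background, and all signals were close to the limit of detection. The change of -0.74 did not pass (SE 0.43, 95% confidence interval -1.75 to 0.27, adjusted p = 0.285 in limma). It was -0.28 without LPR 1 and -1.66 with the slide row as a block, and neither passed. Il23r, the second chain of the IL23 receptor (NM_144548, chromosome 6, 67372966 to 67373025), had relative log2 intensities between -8.39 and -7.86 and was not well above background in any of the 6 kidneys. It was not tested, and no fold can be given for it. The shared chain Il6st, which completes the IL27 receptor, was well above background in all kidneys, with means of 1.15 ± 0.03 and 1.51 ± 0.16 (SD, n = 3 each). Its difference of 0.36 did not pass (SE 0.12, 95% confidence interval 0.08 to 0.63, adjusted p = 0.0909 in limma). Every LPR mouse was nevertheless above every MRL mouse for this probe. A dimmer tested probe of Il6st had a change of -0.25 and did not pass (adjusted p = 0.171 in limma).

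Il18r1, the chain that binds IL18, was read by 2 probes that lie 19630 bases apart. The probe of NM_008365 was -3.19, -3.42 and -3.31 in the MRL mice and -1.32, -2.44 and -1.54 in the LPR mice. All LPR mice were above all MRL mice, and LPR 2 stood closest to the controls. The rise was 1.54 (SE 0.28, 95% confidence interval 0.87 to 2.21), or 2.91-fold, with an adjusted p of 0.0156 in limma. The call was lost without MRL 2 (adjusted p = 0.0530 in limma) and without LPR 3 (adjusted p = 0.0564 in limma), and normexp background correction gave a rise of 0.98. The probe of NM_001161842 was -6.27, -7.68 and -8.13 in the MRL mice and -5.29, -7.16 and -6.09 in the LPR mice. It was well above background in LPR 1 only and was not tested, so the rise of Il18r1 rests on 1 of its 2 probes.

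Among the cytokine subunits Ebi3 alone passed the test. Ebi3, a subunit of IL27 and IL35, was -2.07, -2.27 and -1.04 in the MRL mice and -0.28, -0.12 and -0.48 in the LPR mice. MRL 3 stood above the other MRL mice, though still below every LPR mouse. The means were -1.79 ± 0.66 and -0.29 ± 0.18 (SD, n = 3 each), a rise of 1.50 (SE 0.31, 95% confidence interval 0.75 to 2.24), or 2.83-fold, with an adjusted p of 0.0262 in limma. Without MRL 3 the rise was 1.88 (adjusted p = 0.00105 in limma). Without MRL 1, MRL 2, LPR 1, LPR 2 or LPR 3 it was 1.26 to 1.59 and did not pass (adjusted p from 0.0597 to 0.0858 in limma).

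Il27, which encodes the other subunit of IL27 (NM_145636, chromosome 7, 133736137 to 133736196), was well above background in all 6 kidneys, and no change was called. Its relative log2 intensity was -1.79, -1.68 and -2.07 in the MRL mice and -2.23, -1.79 and -1.90 in the LPR mice. The ranges overlapped, and the change of -0.12 did not pass (SE 0.16, 95% confidence interval -0.51 to 0.26, adjusted p = 0.642 in limma). The rise of 1.50 measured for Ebi3, its partner, lies outside this interval, though the difference between the genes was not tested.

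Il12b, the subunit shared by IL12 and IL23 (NM_001303244, chromosome 11, 44226781 to 44226840), was dim but well above background in all 6 kidneys. It was -5.05, -5.69 and -4.65 in the MRL mice and -5.26, -4.71 and -4.85 in the LPR mice. The groups overlapped almost fully, and the change of 0.19 did not pass (SE 0.28, 95% confidence interval -0.47 to 0.85, adjusted p = 0.672 in limma). Its direction turned under 3 alternatives.

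The subunits that are specific to IL12 and to IL23 were at or below the limit of detection. Il12a (NM_008351, chromosome 3, 68498108 to 68498167) was -5.75, -6.26 and -6.96 in the MRL mice, none of them well above background, and -5.25, -5.45 and -5.97 in the LPR mice, of which LPR 1 and LPR 2 were. The ranges overlapped, with LPR 3 below MRL 1. Il12a was not tested, and no change was called. Il23a (NM_031252, chromosome 10, 127733766 to 127733825) was between -8.59 and -6.66 and was not well above background in any kidney, so it had no measurable order between the groups. With no filter on dim signals, Il12a, Il23a, Il23r and the second Il18r1 probe did not pass either (adjusted p from 0.139 to 0.280 in limma).

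**Figure D2:**
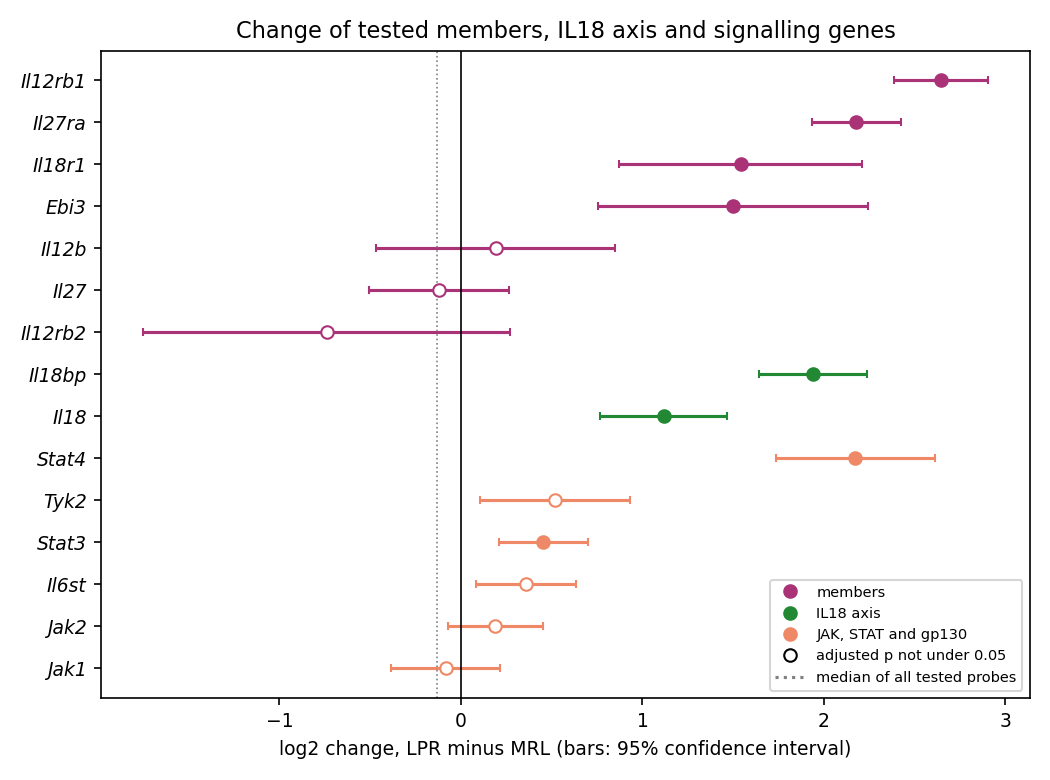
Log2 change (LPR minus MRL) with its 95% confidence interval for the 7 tested members, for Il18 and Il18bp and for signalling genes, with open symbols for an adjusted p that is not under 0.05 in limma and a dotted line at the median of all tested probes, -0.13. The intervals of Il12rb1 (2.39 to 2.90) and Il27ra (1.93 to 2.42) lie wholly above that of Il12rb2 (-1.75 to 0.27). Differences between genes were not tested, and the Il12rb2 signals were close to the limit of detection.

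The arrays lay on 1 slide, with the MRL mice and LPR 1 in its first row and LPR 2 and LPR 3 in its second, so groups and rows were not balanced. Within the first slide column, LPR 2 minus MRL 1 was 2.51 for Il12rb1, 2.14 for Il27ra, 0.75 for Il18r1 and 1.95 for Ebi3. Within the second column, LPR 3 minus MRL 2 was 2.82, 2.28, 1.88 and 1.79 for the same genes. Within the first row, LPR 1 minus the MRL mean was 2.61, 2.11, 1.99 and 1.51. All 12 differences were above 0, as they had to be, since every LPR mouse was above every MRL mouse for these probes. With the row as a block, Il12rb1, Il27ra and Il18r1 passed and Ebi3 did not (change 1.51, SE 0.49, adjusted p = 0.160 in limma). With the column as a block all 4 passed, with changes of 2.67, 2.21, 1.32 and 1.87.

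The promoter of Ebi3, as listed by RefSeq on build GRCm38.p6, is given because Ebi3 was the only tested subunit called higher. RefSeq promoters were at hand for 6 of the 10 members, and of the 4 that rose for Ebi3 and Il18r1. The window of 250 bases before to 50 bases after each start was searched on both strands for a short NF-kB motif (GGG and CC with 5 free bases between them), a STAT motif (TTCNNNGAA), a motif of interferon regulatory factors (GAAA and GAAA with 2 free bases between them), an AP1 motif (TGANTCA) and TATAAA. The 250 bases before the start of Ebi3 follow, with the run that matches the NF-kB motif in capitals.
Ebi3 promoter, chr17:55952373-55952622, plus strand: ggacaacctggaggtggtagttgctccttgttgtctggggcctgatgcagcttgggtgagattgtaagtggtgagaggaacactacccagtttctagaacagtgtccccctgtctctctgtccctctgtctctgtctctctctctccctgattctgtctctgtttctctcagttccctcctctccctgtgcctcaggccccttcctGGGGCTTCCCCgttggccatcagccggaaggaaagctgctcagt
The capitals hold overlapping matches that begin 44 and 43 bases before the start and read on both strands. Further matches began 14 and 35 bases after the start, within the window searched but beyond the bases shown. The NF-kB motif was found in 50.8% of all 32851 promoters. None of the other patterns was found in the Ebi3 window.

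Il18r1 has 3 listed starts, and the window of the last one held TTCNNNGAA at 2 places, 219 and 152 bases before the start, as well as a match of the NF-kB motif. TTCNNNGAA was found in 8.30% of all promoters. Both stretches are given with the match in capitals.
Il18r1 first stretch, chr1:40465777-40465806, plus strand: tcggggttagTTCTGGGAActgtggagctc
Il18r1 second stretch, chr1:40465844-40465873, plus strand: agtacaggtcTTCCCAGAActgaaagcttg
The windows of the other 2 starts held none of the patterns. A match of letters is a description and does not show that a factor was bound.

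The genes around the receptors were followed in 6 lists of 36 genes, each gene read by its brightest tested probe. In limma 22 of the 33 tested genes rose in LPR mice, 1 fell and 10 missed the threshold. The shares of all tested probes were 6.54% higher and 6.07% lower. Ifng, Spi1 and Il10 were tested only because the LPR mice showed them well above background. In a fit of probes well above background on all 6 arrays, 17 pathway genes were higher and 2 were lower. Of the kinases, STAT factors and Il6st, 3 of 7 rose and 0 fell, with a median change of 0.45. Stat4, the main factor of the IL12 receptor, rose by 4.51-fold (change 2.17, SE 0.18, adjusted p = 0.000472 in limma). Stat3, the factor used by IL23, rose by 1.37-fold (change 0.45, adjusted p = 0.0342 in limma), and 1 of its 2 other probes did not pass. The receptor kinases Jak1, Jak2 and Tyk2 had changes of -0.08, 0.19 and 0.52 and did not pass.

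IL18 and its soluble inhibitor both rose. Il18 went from -2.16 ± 0.07 to -1.05 ± 0.25 (SD, n = 3 each), a rise of 2.17-fold with an adjusted p of 0.00382 in limma. Il18bp, which binds IL18 and blocks it, rose by 3.83-fold (adjusted p = 0.000144 in limma). Il18rap, the second chain of the IL18 receptor, was not well above background in any kidney.

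All 8 regulators of these cytokine genes in myeloid cells rose, with a median change of 1.33. Irf1 rose by 5.42-fold, Batf3 by 3.07-fold and Irf8 by 2.98-fold. These are transcription factors of dendritic cells and of the response to interferon. Spi1, the factor PU.1 of myeloid cells and B cells, was not well above background in any MRL mouse and was at least 5.16-fold higher. Cd40, the receptor through which T cells stimulate IL12 production, rose by 1.79-fold (adjusted p = 0.00705 in limma). The smallest rise was that of Nfkb1, 1.53-fold. Irf5 and Nfkb1 each also had 1 probe that did not pass.

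Genes of type 1 responses had the highest median of the 6 lists. Of 5 tested, 4 rose and 0 fell, with a median change of 3.43. Ifng, which encodes interferon gamma, was not well above background in any MRL mouse and rose at least 16.5-fold. Its adjusted p of 0.000272 in limma belongs to the fit on those MRL signals and not to this bound. Cxcr3, a chemokine receptor of type 1 T cells, rose by 12.1-fold. Eomes and Tbx21, transcription factors of type 1 T cells and natural killer cells, rose by 10.8-fold and 4.66-fold. For Eomes 2 of the 3 controls were well above background. Hlx had a change of 0.17 and did not pass (adjusted p = 0.665 in limma).

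Genes of type 17 responses went different ways. Of 5 tested, 1 rose, 1 fell and 3 did not pass, with a median change of -0.20. Under 9 of the 20 alternatives no pathway gene was called lower. Ccr6, a chemokine receptor of type 17 T cells and also of B cells, rose by 5.68-fold (adjusted p = 0.000107 in limma). Il17f had a change of -0.85 (adjusted p = 0.0649 in limma), and Il22 and Il1r1 had changes of -0.20 and 0.09. Il17a and Csf2 were not well above background in any kidney.

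Of 6 genes that IL27 is known to act on, 4 rose and 2 did not pass. The median change was 2.17, or 1.68 with Il10 at its bound. Lag3, an inhibitory receptor of T cells, rose by 15.4-fold and had a signal well above background in 2 of the 3 controls. Socs3, an inhibitor of STAT signalling, rose by 4.56-fold and Prdm1, a transcription factor of plasma cells and regulatory T cells, by 4.44-fold. Il10, which encodes an anti-inflammatory cytokine, was not well above background in any MRL mouse and was at least 2.31-fold higher. Maf and Ahr, factors needed for IL10 in T cells and also expressed in kidney, had changes of -0.29 and -0.16. These genes respond to many signals besides IL27.

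**Figure D3:**
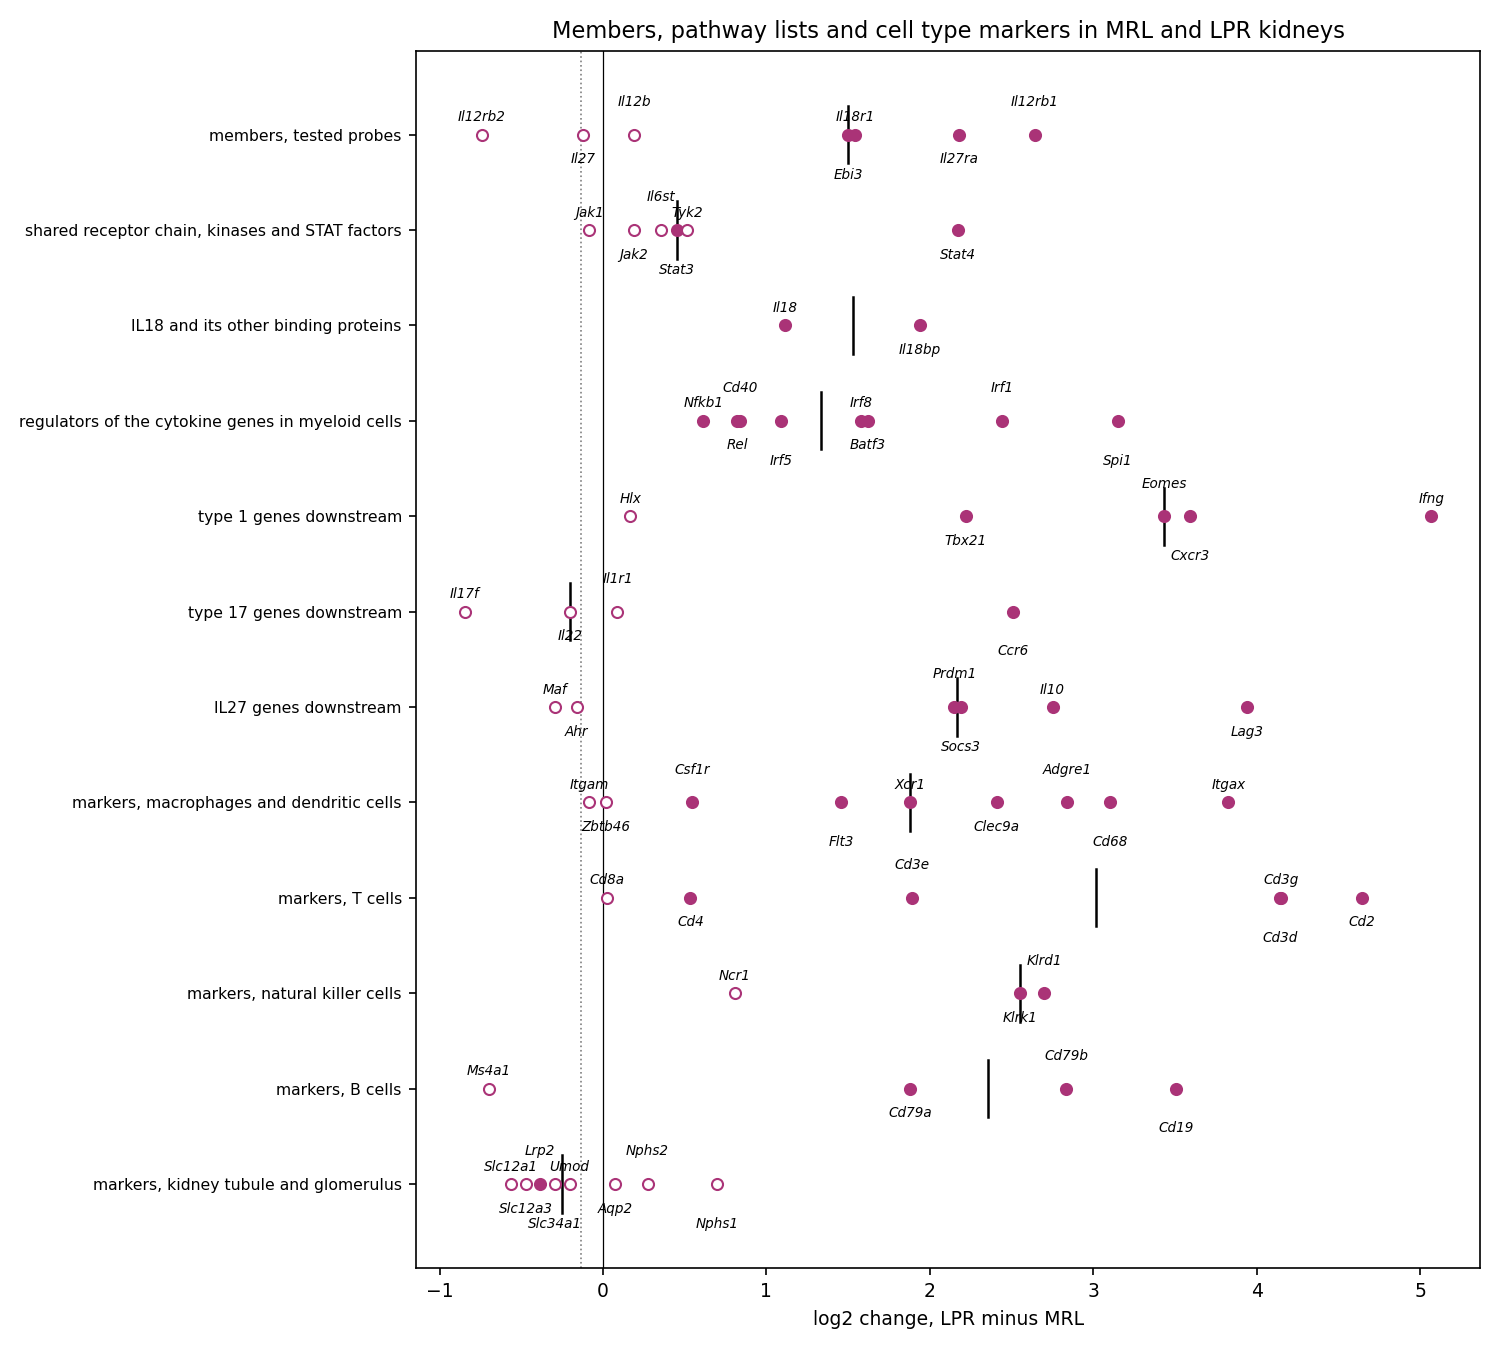
Log2 change (LPR minus MRL) of the tested members, of genes of 6 pathway lists and of cell type markers, each gene by its brightest tested probe, with filled symbols for an adjusted p under 0.05 in limma, black bars for list medians and a dotted line at -0.13, the median of all tested probes. Type 1 genes have a median of 3.43 and type 17 genes one of -0.20. Ifng, Il10, Spi1 and Xcr1 are drawn at fitted values although they were not well above background in the MRL mice.

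Most markers of the cells that make and receive these cytokines rose in LPR mice. Of the tested members, Il12rb1, Il27ra, Il18r1 and Ebi3 rose too, and no rise was called for Il27, Il12b and Il12rb2. Il12b and Il12rb2 were close to the limit of detection. Of the macrophage and dendritic cell markers, 7 of 9 rose, and their summed signal, in units of the 75th percentile of the array, was 26.3 to 34.1 in MRL mice and 42.8 to 46.7 in LPR mice. Itgax, a marker of dendritic cells, rose by 14.2-fold, and Itgam and Zbtb46 did not pass. Flt3, a growth factor receptor of dendritic cell precursors, had a brighter probe that rose and a dimmer one that was lower. Of the T cell markers, 5 of 6 rose, with a summed signal of 2.51 to 2.96 against 10.1 to 12.01. Cd3d and Cd3g, parts of the T cell receptor complex, rose by 17.6-fold and 17.7-fold, and Cd8a did not pass. Cd4, which marks helper T cells, and Csf1r, a growth factor receptor of macrophages, each counted as risen by their brightest probe but also had a probe that did not pass, with changes of 0.25 and 0.19. Of 4 natural killer cell markers 3 were tested and 2 rose, with a summed signal of 0.0934 to 0.130 against 0.511 to 0.646. Ncr1, which defines these cells, had a change of 0.81 and did not pass (adjusted p = 0.100 in limma), and Klrb1c was too dim to be tested. Of the B cell markers, 3 of 4 rose, with a summed signal of 0.606 to 0.819 against 3.51 to 4.73. The brightest Ms4a1 probe had a change of -0.70 and did not pass (adjusted p = 0.0504 in limma). Every LPR mouse was below every MRL mouse for that probe, whereas the other Ms4a1 probe rose, with a change of 4.99. The summed signal of the 5 receptor chains was 0.330 to 0.370 in MRL mice and 1.21 to 1.48 in LPR mice. That sum includes Il12rb2, for which no rise was called, and Il23r, which was not well above background in any kidney. The part of the immune cells in the rise of Il12rb1, Il27ra and Il18r1 was not tested.

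The kidney markers identified the tissue in all 6 samples. Umod of the thick ascending limb and Slc34a1 and Lrp2 of the proximal tubule were far brighter than the 75th percentile, with MRL means of 8.06, 7.27 and 7.17. Of the 8 tubule and glomerulus markers, 1 was lower, 0 were higher and 7 did not pass, with a median change of -0.25. At an unadjusted p under 0.05 in limma, 3 were lower and 1 was higher. The lower one was Lrp2 (change -0.39, adjusted p = 0.0497 in limma), whose other 4 probes did not pass. The summed signal of the list was 614 to 647 in MRL mice and 506 to 538 in LPR mice. The markers of T cells, B cells and macrophages were also well above background in MRL kidneys, apart from Xcr1.

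**Figure D4:**
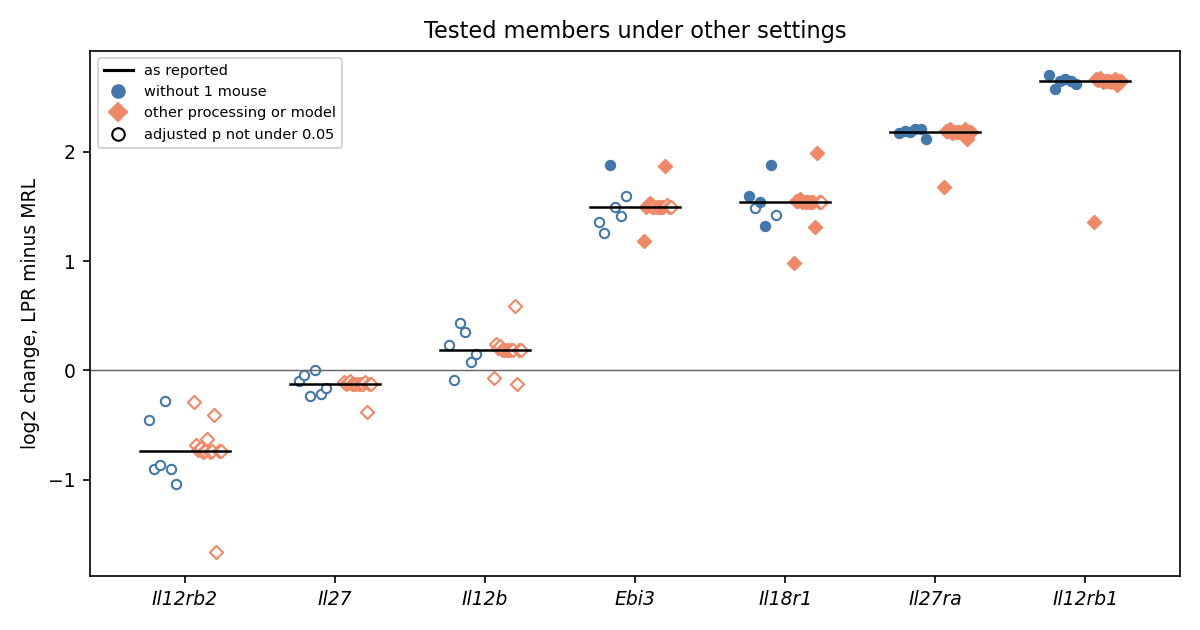
Log2 change (LPR minus MRL) of the 7 tested members as reported (black lines), without 1 mouse (circles) and under the other settings (diamonds), with open symbols for an adjusted p that is not under 0.05. Il12rb1 and Il27ra stay filled throughout, whereas Ebi3 loses its call under 9 and Il18r1 under 3 of 20 alternatives.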

How the data were processed

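The kidneys of 3 MRL and 3 LPR mice were read on 6 single-colour arrays (Agilent SurePrint G3) of 1 slide, with 1 Cy3-labelled sample per array. The labels name the RNeasy Mini Kit for the RNA, and the study's methods name Trizol. The intensities deposited by the authors were background-subtracted by Feature Extraction (version 12.0.3.1) and not normalized between arrays. They also deposited each intensity as a ratio to the 75th percentile of its array, which was used as an alternative. The deposited flags of other kinds mark spots well above background, outliers and saturation. Outlier spots, 73 to 90 per array, were left out.

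Intensities were taken to log2, the 75th percentile of the array was subtracted, and limma (version 3.58.1, R version 4.3.3) compared LPR with MRL without a covariate. With 3 mice a group, an exact permutation test has a smallest p of 0.10, so none was run. The number of arrays limits the precision. Gene names are those of the array, and the names of all members matched current RefSeq names. The genes named are the members, the pathway lists and cell markers, and Fas. Counts and medians of the lists also cover some genes whose values are not reported here or drawn. The members, lists and tests were chosen with earlier results of these data known. Alternatives changed the background correction, scaling, dim-probe filter, floor, outliers, variance model, slide row or column, replicate number, test, probe rule or left out 1 mouse. The steps were tested on simulated data. The plots were made in python 3.11.15 (matplotlib 3.10.9).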

Additional observations from a re-analysis of the deposited data

How the results depend on the processing

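Of 139 values of the 7 tested members under 20 alternatives, 123 kept their direction and their side of the threshold, 12 lost a call and 4 turned direction. The lost calls were those of Ebi3 (9) and Il18r1 (3). The number of members higher, 4 as reported, was 2 with the methods' t-test on log2 values after Benjamini-Hochberg adjustment and 2 to 4 when 1 mouse was left out, with 2 without MRL 2 or without LPR 3. It was 3 with no filter on dim probes and with the slide row as a block, and 0 members were lower in any fit. The deviations of samples with the same replicate number correlated by 0.115, 0.0203 and 0.00521, and not every sample correlated best with its own number, so the numbers were not taken as pairs. With the replicate number as a block, 3 members were higher and Ebi3 did not pass (adjusted p = 0.0637 in limma), and no other member's call changed. The change of Il12b was -0.069 with normexp and -0.13 with the slide row as a block, and it was -0.088 to 0.43 when 1 mouse was left out, with the lowest value without MRL 2. That of Il27 was -0.24 to 0.0068 when 1 mouse was left out, with the highest value without LPR 1. The causes were not tested. Over all probes, 1469 to 2886 were higher and 456 to 4542 lower across the alternatives, against 2610 and 2423 as reported, with the lowest counts for the slide row as a block. With normexp 2532 were higher and 4542 lower. Pathway genes higher were 17 to 24 against 22, and pathway genes lower were 0 to 2 against 1. Il12a, Il12b, Il12rb2, Il23a and Il23r lay within 1.42 log2 units of the detection limit or under it, so small changes of theirs could not be seen.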
